A study of Mus musculus with 12 samples.

Results

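Integrins are the cell surface receptors that bind extracellular matrix, and laminins are the chains of the heterotrimeric glycoproteins that form the core of basement membranes. Their genes were followed in the palatal shelves of mouse embryos (strain C57BL/6, stage E13.5), which at this stage grow beside the tongue before they rise and fuse. The members were taken by symbol: every row named as an integrin α or β subunit (Itga and Itgb genes) or as a laminin α, β or γ chain (Lama, Lamb and Lamc genes). This gave 37 of the 24391 gene symbols in the count tables, 26 integrin and 11 laminin genes, and the rule uses no measured value. RNA-seq was done on the anterior and on the posterior part of the shelves. The 4 groups were tamoxifen-treated anterior palate, control anterior palate, tamoxifen-treated posterior palate and control posterior palate, with 3 libraries each. Tamoxifen binds oestrogen receptors as a mixed agonist and antagonist, and the study links it to cleft palate in mice. No dose, treatment time or transgene is named in the sample labels, and what the controls received is not given there. The labels do not say whether the libraries of a group are from separate embryos or litters, and p-values here therefore reflect only how these libraries vary, which may be technical variation.

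Each integrin is a pair of 1 α and 1 β subunit, and the pair sets the ligand. β1 joins most α subunits: α1, α2, α10 and α11 with it bind collagens, α3, α6 and α7 bind laminins, and α5, α8 and αv bind proteins with the RGD motif such as fibronectin. αv also pairs with β3, β5, β6 and β8, and αvβ6 and αvβ8 are known for releasing active TGF-β from its latent complex. α6β4 holds epithelial cells to their basement membrane at hemidesmosomes. Every laminin is made of 1 α, 1 β and 1 γ chain; laminin-332, which holds the chains from Lama3 and Lamb3, is the laminin of stratified epithelium, while the α4 chain is found in vessels and mesenchyme. The palatal shelf is neural crest-derived mesenchyme covered by epithelium on a basement membrane, and mouse embryos without Itgav have been described with cleft palate.

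Total counts ranged between 39384932 and 73017438 per library. Of the members, 35 passed the filter on low counts and were tested among 15958 genes. The remaining pair, Itgax and Itgad, which encode leukocyte α subunits, reached at most 0.193 and 0.187 CPM in any library and were not tested. Levels are given as CPM, which scales counts to a common library size after TMM normalization, with replicates 1, 2 and 3 in that order. A gene is called where the p of edgeR's quasi-likelihood test, after Benjamini-Hochberg adjustment across the whole table, was under 0.05. In bulk tissue, fewer cells of a type and less RNA per cell cannot be told apart. The shelf markers Prrx1, Twist1 and Osr2 were present in all 12 libraries, and the summed level of 8 palatal mesenchyme markers was 2969 to 3301, 2668 to 2911, 2060.0 to 2339 and 2077 to 2099 CPM in tamoxifen anterior, control anterior, tamoxifen posterior and control posterior libraries. Of these 8 markers, 3 were called higher and 3 lower under tamoxifen in the anterior palate (0 and 0 with the trend removed), and 2 higher and 1 lower in the posterior palate (1 and 1). Among all genes tested, 25.6% were called higher and 24% lower in the anterior palate, and 17.3% and 11.7% in the posterior palate. One property of the whole tables bears on the members: across 15849 genes with a known transcript length, the log2 fold change for tamoxifen had a Spearman correlation with length of 0.54 in the anterior and 0.47 in the posterior palate. The same fold changes had Spearman correlations with GC content of -0.52 in the anterior and -0.41 in the posterior palate. The members are long, with a median transcript of 5629 nt against 3310 nt for all genes tested. Their median GC content was 52.7%, against 50% for all genes tested. Each comparison was therefore also made with a smooth trend of counts on length and GC content removed from every library, called here the trend-removed fit. What part of a member's change follows from that trend was not tested, and trend and treatment cannot be told apart in these libraries.

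Per unit of transcript length, the shelves' integrins were dominated by few subunits. Itgb5 and Itgb1 together made up nearly all β subunit RNA. Itgb5 held 48.3 ± 2.35%, 56.97 ± 1.60%, 46.9 ± 2.09% and 52.7 ± 2.36% of the summed RPKM of the 8 Itgb genes in tamoxifen anterior, control anterior, tamoxifen posterior and control posterior palate (SD, n = 3 each). Itgb1 held 46.1 ± 3.17%, 36.7 ± 1.85%, 48.3 ± 2.45% and 42.3 ± 2.30% in the same groups. The order of these 2 subunits was thus Itgb5 above Itgb1 in both control groups, while under tamoxifen their shares differed by less than their spread. These shares, and those of the α subunits and laminin chains below, were computed without trend removal. In the trend-removed fit both Itgb5 and Itgb1 were called higher under tamoxifen in the anterior palate, by the same log2 fold change, as given below. Itgb4 followed at 4.24 ± 0.756% in tamoxifen anterior and 4.99 ± 0.303% in control anterior palate, and at 3.37 ± 0.458% in tamoxifen posterior and 3.35 ± 0.165% in control posterior palate. Each of the other β subunits stayed under 1% in every group.

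Among the α subunits, Itga5, whose protein pairs with β1 as the main fibronectin receptor, ranked first with 27.1 ± 1.15%, 35.3 ± 2.39%, 34.8 ± 2.03% and 42.3 ± 0.380% of the summed α RPKM in the 4 groups in that order. The laminin receptor subunit Itga6 came second under tamoxifen, with 18.9 ± 0.897% in anterior and 18.3 ± 1.22% in posterior palate. In controls Itga6 had 14.7 ± 1.81% in anterior palate, where Itga3 (13.02 ± 0.752%) lay within its spread and Itga9 had 11.9 ± 1.19%, and 14.1 ± 0.476% in posterior palate beside Itga9 at 14.9 ± 0.599%. Itgav held 12.4 ± 0.573% in tamoxifen anterior against 7.86 ± 0.592% in control anterior palate, and 10.9 ± 0.629% in tamoxifen posterior against 8.08 ± 0.870% in control posterior palate.

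Lama4 was the main laminin α chain, with 56.7 ± 3.59% in tamoxifen anterior, 52.7 ± 1.18% in control anterior, 65.2 ± 3.64% in tamoxifen posterior and 62.2 ± 1.18% in control posterior palate, ahead of Lama5, which held 27.04 ± 3.23%, 31.5 ± 2.13%, 20.4 ± 2.38% and 21.5 ± 1.74%. Among the β chains Lamb1 led Lamb2, by 60.5 ± 0.617% to 33.97 ± 0.323% in control anterior palate for example. The chain of the early embryonic basement membrane, Lama1, and the muscle and mesenchyme chain, Lama2, each held under 8% of the α chain RNA in every group. These shares count RNA per length and say nothing of assembled trimers.

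**Figure D1:**
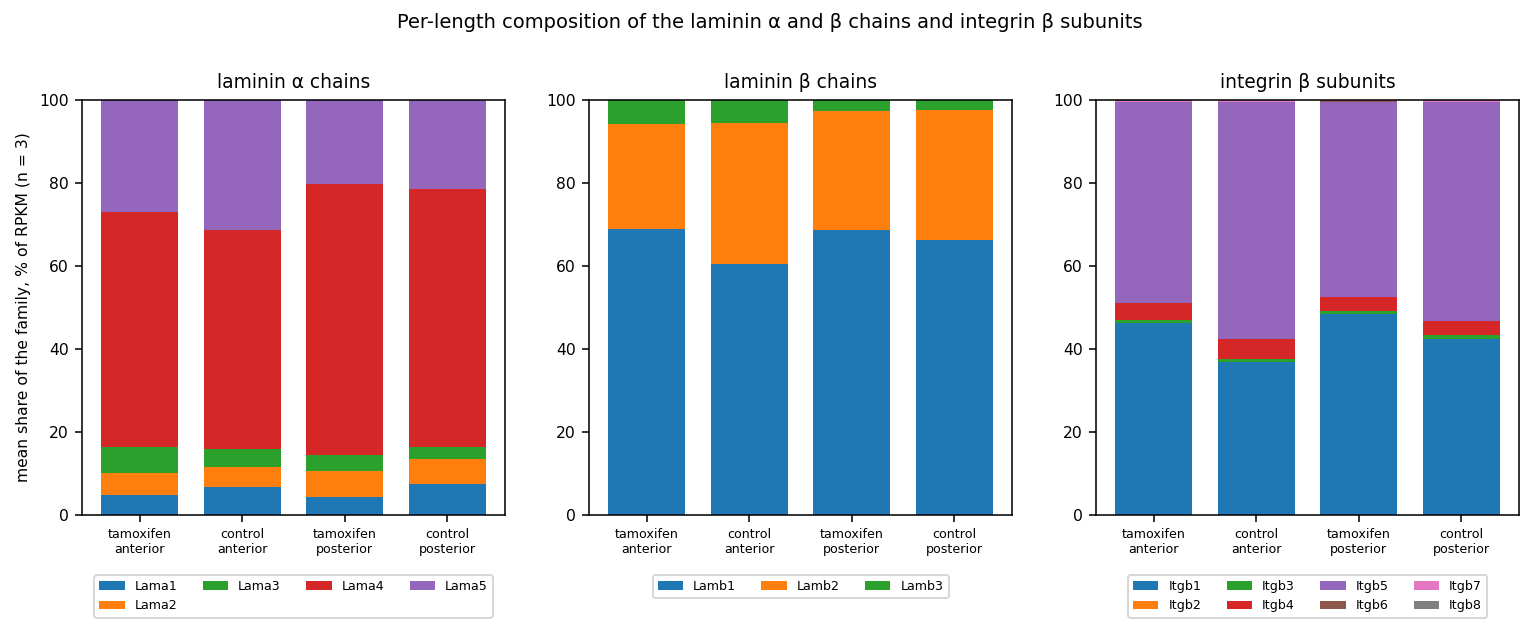
Stacked bars show the mean share of each gene in the summed RPKM of its family, in percent, for the laminin α and β chains and the integrin β subunits in tamoxifen anterior, control anterior, tamoxifen posterior and control posterior palate (3 libraries each). Lama4 and Lamb1 are the widest bands of the laminin families, and Itgb5 and Itgb1 fill most of the β subunit bars.

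Tamoxifen-treated shelves had more RNA of many integrin and laminin genes, in both parts of the palate. In the anterior palate 17 of the 35 members tested were called higher and 3 lower, where 25.6% of all genes tested were called higher and 24% lower. In the posterior palate 14 were called higher and 1 lower, against 17.3% and 11.7% of all genes. Both lists share 13 members called higher in each part, among them Itga1, Itga2, Itga4, Itga6, Itga8, Itgav, Itgb1, Itgb8, Lama2, Lama3, Lama4 and Lamc1, where 15.4% of all genes were called higher in both. No member was called in opposite directions. Treated and control libraries did not overlap for 22 of the 35 members in the anterior and 19 in the posterior palate. Among all genes tested, 56.5% and 48% had no overlap in these comparisons, so such separation was common. The median log2 fold change of the members was 0.24 in the anterior and 0.25 in the posterior palate, against -0.02 and 0.02 for all genes tested. In the trend-removed fit the counts were 14 higher and 1 lower in the anterior palate (16.1% and 16.6% of 15849 genes) and 7 higher and 1 lower in the posterior palate (7.74% and 10.2%), and the members' medians were 0.14 and 0.11. Of the calls in the first fit, 13 of 20 anterior and 7 of 15 posterior ones were kept in the same direction.

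**Figure D2:**
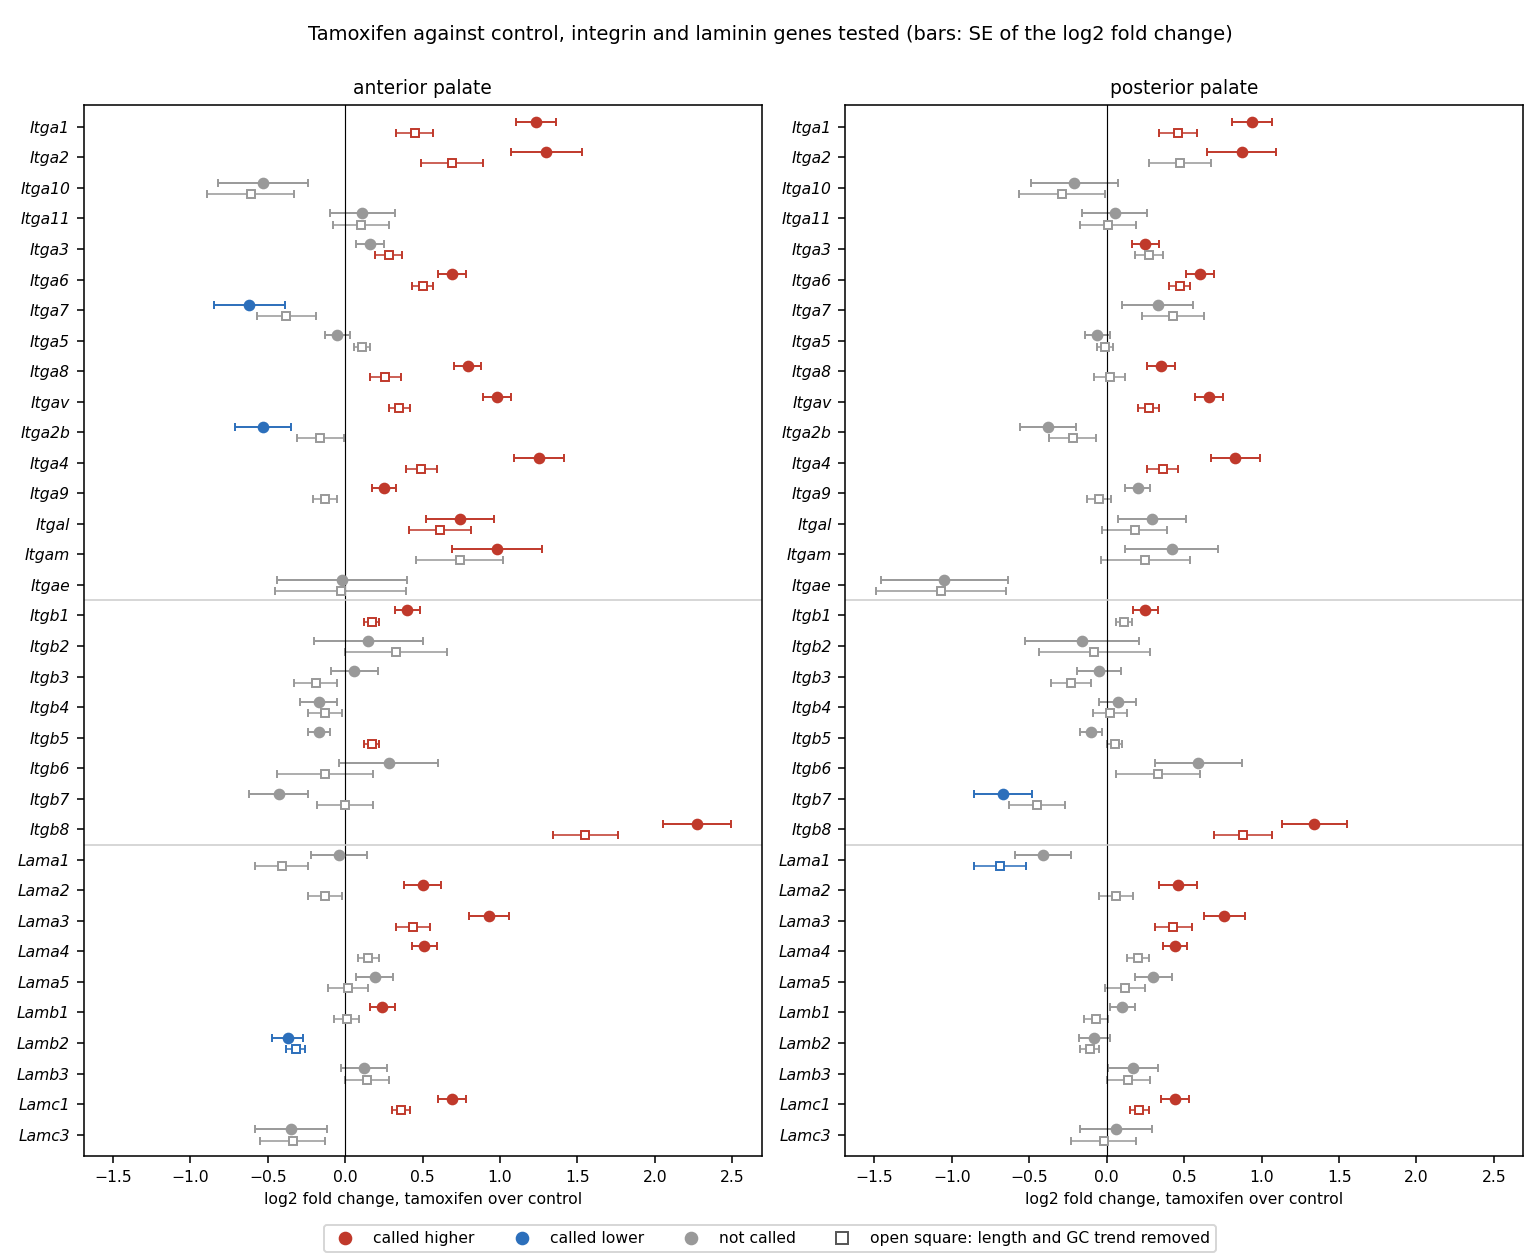
Each row is 1 member tested; filled circles give the log2 fold change of tamoxifen over control with its SE, and open squares the same after removal of the length and GC trend, for the anterior (left) and posterior (right) palate. Itgb8 lies farthest to the right in both panels, and the open squares of Lama2 and Lama4 lie to the left of their filled circles.

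The largest rise among the members was that of Itgb8, the β subunit of the TGF-β-activating integrin αvβ8. Itgb8 stood at 5.54, 5.06 and 5.17 CPM in tamoxifen anterior libraries, against 0.991, 1.40 and 0.866 CPM in control anterior libraries. Posterior Itgb8 was at 6.06, 4.02 and 3.93 CPM in tamoxifen posterior libraries, against 1.87, 1.72 and 1.93 CPM in control posterior libraries. All treated libraries lay above all control libraries of the same part, and the lowest of the 12 libraries held 37 reads, so this is a rise of a lowly expressed gene. Itgb8 was 4.83-fold higher (log2 fold change 2.27 ± 0.22 SE, adjusted p = 1.9e-06) in the anterior palate and 2.54-fold higher (log2 fold change 1.34 ± 0.21 SE, adjusted p = 0.00055) in the posterior palate. With the trend removed the log2 fold changes were 1.55 ± 0.21 and 0.88 ± 0.19, and both calls were kept.

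Its α partner Itgav rose too. The levels of Itgav were 109, 104 and 109 CPM in tamoxifen anterior libraries, against 57.02, 57.4 and 49.01 CPM in control anterior libraries. Posterior levels were 92.9, 104 and 94.1 CPM in tamoxifen posterior libraries, against 54.5, 67.9 and 61.6 CPM in control posterior libraries. Treated and control libraries did not overlap in either part. Itgav was 1.97-fold higher (log2 fold change 0.98 ± 0.09 SE, adjusted p = 1.3e-06) in the anterior palate and 1.58-fold higher (log2 fold change 0.66 ± 0.09 SE, adjusted p = 0.00028) in the posterior palate; with the trend removed the log2 fold changes were 0.35 ± 0.07 and 0.27 ± 0.07, both still called. Itgb3, Itgb5 and Itgb6, which also encode partners of αv, were not called for tamoxifen in either part. Itgb5 had log2 fold changes of -0.17 ± 0.07 (adjusted p = 0.06) in the anterior and -0.10 ± 0.07 (adjusted p = 0.3) in the posterior palate, and in the trend-removed fit it was called higher in the anterior palate at 0.17 ± 0.05, so its direction turned. Itgb3 had 0.06 ± 0.15 (adjusted p = 0.76) and -0.05 ± 0.14 (adjusted p = 0.82), and Itgb6, the other TGF-β-activating partner, 0.28 ± 0.32 (adjusted p = 0.49) and 0.59 ± 0.28 (adjusted p = 0.13), on the same scale and in the same order.

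Promoters were available for 23 of the 37 members, as the 250 bases before the RefSeq start of each gene on build GRCm38.p6. Printed here are those of Itgb8 and Itgav, which rose together under tamoxifen, and of Lama5 and Lamb3, laminin genes that were higher in the anterior palate. Each is written 5′ to 3′ on the strand of its gene, and capitals mark GC boxes on either strand.
Itgb8 (rose under tamoxifen; chr12:119238277-119238526, minus strand): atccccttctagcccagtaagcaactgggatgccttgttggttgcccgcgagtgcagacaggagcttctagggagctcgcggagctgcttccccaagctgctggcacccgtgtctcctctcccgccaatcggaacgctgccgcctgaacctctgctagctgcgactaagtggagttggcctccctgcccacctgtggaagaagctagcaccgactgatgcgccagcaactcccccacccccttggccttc
Itgav (rose under tamoxifen; chr2:83724147-83724396, plus strand): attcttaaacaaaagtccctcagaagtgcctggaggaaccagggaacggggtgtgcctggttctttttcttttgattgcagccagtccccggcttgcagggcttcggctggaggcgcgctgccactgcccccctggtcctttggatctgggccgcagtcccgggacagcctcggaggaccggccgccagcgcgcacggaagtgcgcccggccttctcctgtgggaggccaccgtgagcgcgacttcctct
Lama5 (higher anteriorly; chr2:180225860-180226109, minus strand): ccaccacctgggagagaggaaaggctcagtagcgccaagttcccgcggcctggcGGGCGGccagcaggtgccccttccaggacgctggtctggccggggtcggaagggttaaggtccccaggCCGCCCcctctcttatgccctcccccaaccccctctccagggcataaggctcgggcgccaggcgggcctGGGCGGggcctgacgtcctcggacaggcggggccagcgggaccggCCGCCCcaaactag
Lamb3 (higher anteriorly; chr1:193301744-193301993, plus strand): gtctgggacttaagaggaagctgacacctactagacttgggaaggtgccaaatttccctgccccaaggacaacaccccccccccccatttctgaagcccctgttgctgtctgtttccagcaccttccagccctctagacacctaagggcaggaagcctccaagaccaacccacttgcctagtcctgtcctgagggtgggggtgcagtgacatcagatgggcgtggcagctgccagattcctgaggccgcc

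5 motifs were searched in these windows, on both strands, and none of them contains another. The GC box GGGCGG was found in 8 of the 23 members' windows (34.8%), among them Itgb1, Itgb5, Itga5 and Lamb1, against 32.7% of 32851 promoters. Of the printed windows that of Lama5 holds 4 GC boxes, and those of Itgb8, Itgav and Lamb3 hold none of the 5 motifs. The AP-1 site TGANTCA was found in 1 of 23 (Itgax), against 6.75% of all promoters. The TATA box TATAAA (12.4% of all promoters), the E-box CACGTG (6.02%) and the palindromic oestrogen response element, GGTCA and TGACC with 3 bases between them (0.0639%), were in none of the 23. A match describes letters in a window and is not a bound site.

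**Figure D3:**
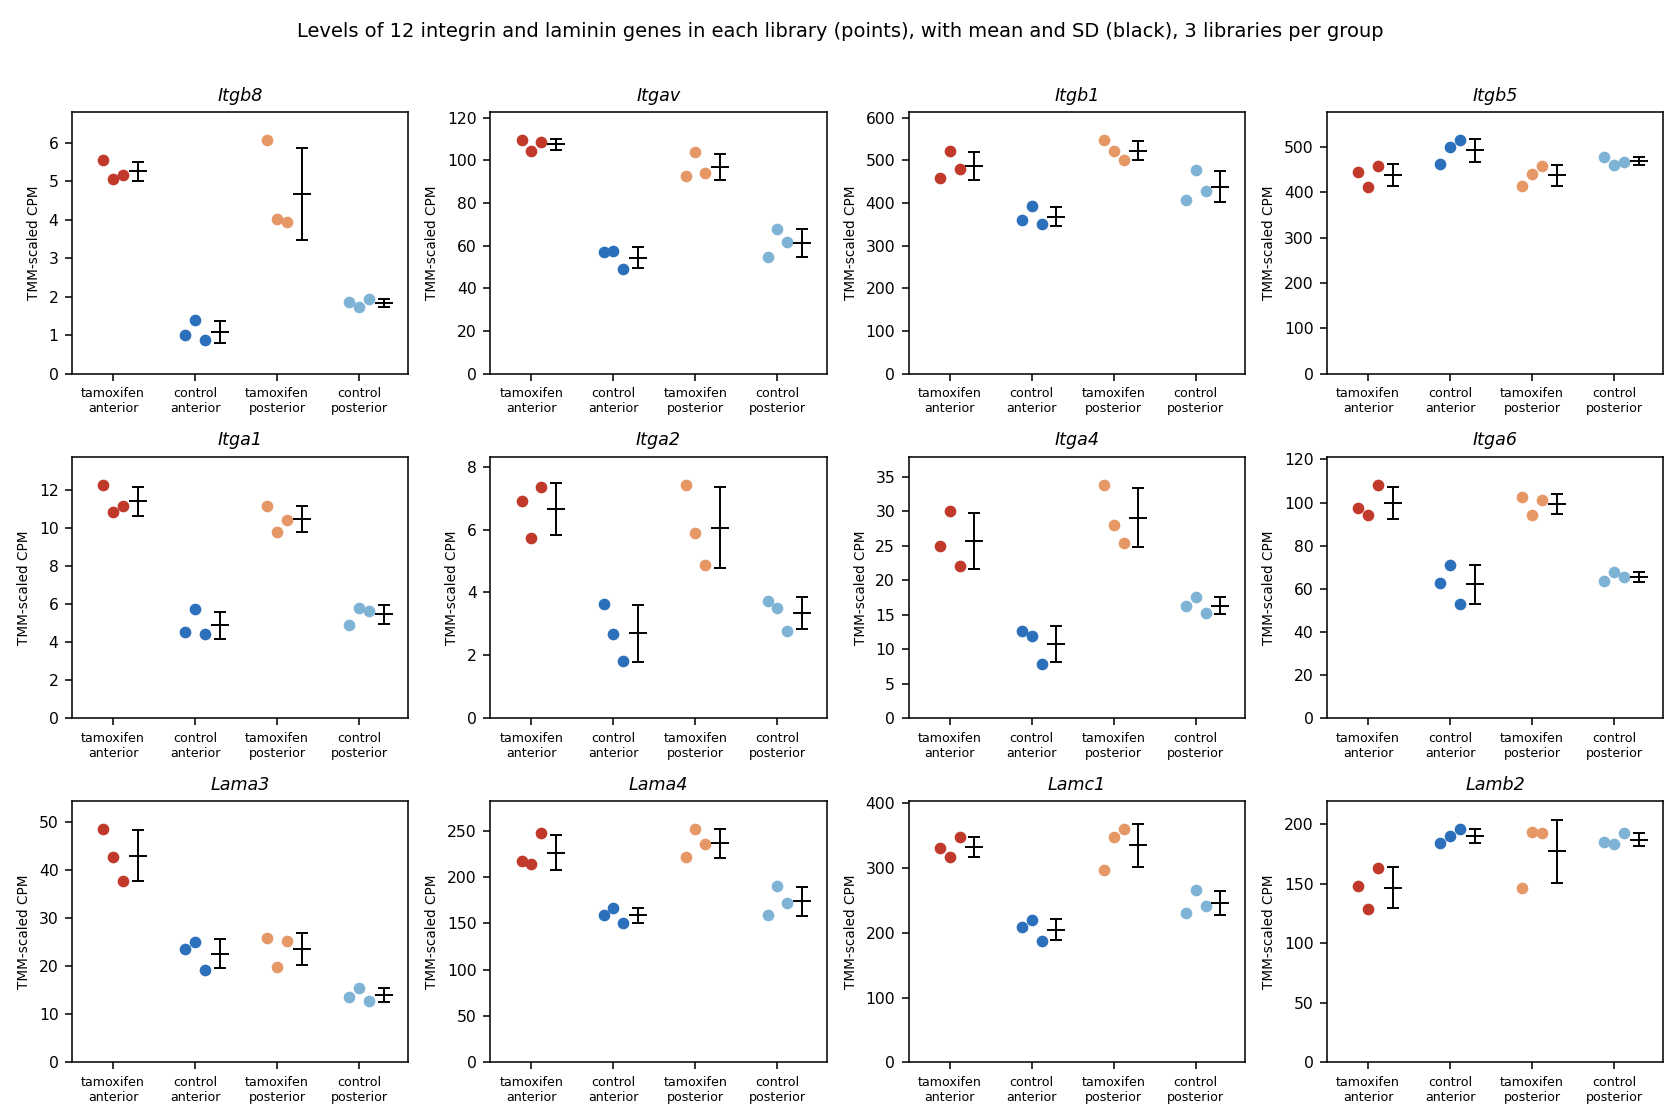
Points are TMM-scaled CPM in single libraries and black marks the mean and SD, for 12 members in tamoxifen anterior, control anterior, tamoxifen posterior and control posterior palate. In the panels of Itgb8, Itgav, Itga1, Itga2, Itga4, Itga6, Lama3, Lama4 and Lamc1 every treated library lies above the control libraries of its part, while Itgb5 and Lamb2 lie lower or overlap.

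Both collagen receptor subunits that pair with β1 in epithelial, vascular and other cells, Itga1 and Itga2, rose, while the other collagen-binding subunits, Itga10 and Itga11, which are typical of cartilage and of fibroblasts, were not called. Itga1 had 12.3, 10.8 and 11.1 CPM in tamoxifen anterior libraries, against 4.53, 5.71 and 4.40 CPM in control anterior libraries. Posterior levels of Itga1 were 11.2, 9.80 and 10.4 CPM in tamoxifen posterior libraries, against 4.90, 5.80 and 5.64 CPM in control posterior libraries. The treated libraries of Itga1 all lay above every control library, and the groups did not overlap. Itga1 was 2.34-fold higher (log2 fold change 1.23 ± 0.13 SE, adjusted p = 4e-06) and 1.92-fold higher (log2 fold change 0.94 ± 0.13 SE, adjusted p = 0.00034) in the anterior and the posterior palate, and with the trend removed it was still called in both, at 0.45 ± 0.12 and 0.46 ± 0.12.

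Itga2 had 6.90, 5.73 and 7.34 CPM in tamoxifen anterior libraries, against 3.62, 2.68 and 1.80 CPM in control anterior libraries. Posterior libraries held 7.42, 5.89 and 4.86 CPM in tamoxifen posterior libraries, against 3.72, 3.51 and 2.76 CPM in control posterior libraries. Again no treated library was as low as a control of its part. Itga2 was 2.47-fold higher (log2 fold change 1.30 ± 0.23 SE, adjusted p = 0.00021) in the anterior palate and 1.82-fold higher (log2 fold change 0.87 ± 0.22 SE, adjusted p = 0.0095) in the posterior palate. The anterior call was kept with the trend removed (0.69 ± 0.20), whereas the posterior one ended (0.47 ± 0.20), and it also ended without tamoxifen posterior replicate 1 (0.67) or control posterior replicate 3 (0.75). Itga10 had log2 fold changes of -0.53 ± 0.29 (adjusted p = 0.14) and -0.21 ± 0.28 (adjusted p = 0.62) in the anterior and the posterior palate, and Itga11 0.11 ± 0.21 (adjusted p = 0.7) and 0.05 ± 0.21 (adjusted p = 0.88).

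Of the laminin receptor subunits, Itga6 rose in both parts. Itga6 had 97.3, 94.05 and 108 CPM in tamoxifen anterior libraries, against 62.8, 70.8 and 52.7 CPM in control anterior libraries. Posterior values of Itga6 were 103, 94.2 and 101 CPM in tamoxifen posterior libraries, against 63.4, 67.8 and 65.2 CPM in control posterior libraries. The lowest treated library lay above the highest control in each part. Itga6 was 1.61-fold higher (log2 fold change 0.69 ± 0.09 SE, adjusted p = 2.6e-05) in the anterior and 1.52-fold higher (log2 fold change 0.60 ± 0.09 SE, adjusted p = 0.00054) in the posterior palate, and 0.50 ± 0.07 and 0.47 ± 0.07 on the log2 scale with the trend removed, both called. Its hemidesmosome partner Itgb4 was not called, at -0.17 ± 0.12 (adjusted p = 0.27) and 0.07 ± 0.12 (adjusted p = 0.68).

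Itga3, the other epithelial laminin receptor subunit, had 73.5, 68.4 and 65.9 CPM in tamoxifen anterior libraries, against 57.1, 66.6 and 62.7 CPM in control anterior libraries. Posterior values were 46.2, 38.7 and 47.5 CPM in tamoxifen posterior libraries, against 37.6, 36.4 and 37.5 CPM in control posterior libraries. Anterior libraries overlapped and posterior ones did not. Itga3 was called in the posterior and not in the anterior palate, 1.19-fold higher (log2 fold change 0.25 ± 0.09 SE, adjusted p = 0.041), with an anterior log2 fold change of 0.16 ± 0.09 (adjusted p = 0.14). In the trend-removed fit this turned round: the anterior change was called (0.28 ± 0.09) and the posterior one was not (0.27 ± 0.09). The posterior call was also lost in 10 of the 12 fits that left out 1 library (log2 fold changes 0.19 to 0.26); it held without control anterior replicate 3 and without tamoxifen posterior replicate 2. It was lost as well with limma-voom (adjusted p = 0.052), with upper-quartile factors in edgeR (adjusted p = 0.064) and with a filter of 1 CPM in 3 libraries (adjusted p = 0.054).

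The third of these subunits, Itga7, is best known from skeletal muscle, and was low. Itga7 averaged 3.96 ± 1.13 CPM in tamoxifen anterior and 6.12 ± 0.591 CPM in control anterior palate (SD, n = 3 each), and it was called 1.54-fold lower (log2 fold change -0.62 ± 0.23 SE, adjusted p = 0.031) there. This call ended with the trend removed (-0.38 ± 0.19) and without tamoxifen anterior replicate 2 (-0.40), control anterior replicate 2 (-0.54) or control anterior replicate 3 (-0.63). In the posterior palate Itga7 averaged 4.20 ± 0.388 CPM under tamoxifen and 3.34 ± 1.06 CPM in controls, with a log2 fold change of 0.33 ± 0.23 (adjusted p = 0.3). The summed level of 12 skeletal muscle markers was 8.10 to 15.4 CPM in tamoxifen anterior and 12.04 to 32.5 CPM in control anterior libraries, with 5 of the 11 tested markers called lower and 0 higher (2 and 0 with the trend removed). It was 907 to 1223 CPM in tamoxifen posterior and 733 to 834 CPM in control posterior libraries, with 2 called higher and 0 lower (4 and 0 with the trend removed); their part in the Itga7 values was not tested.

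Itga4, whose product with β1 binds fibronectin and Vcam1, rose in both parts. Itga4 had 24.9, 29.99 and 22.00 CPM in tamoxifen anterior libraries, against 12.6, 11.9 and 7.80 CPM in control anterior libraries. Posterior values of Itga4 were 33.8, 27.9 and 25.4 CPM in tamoxifen posterior libraries, against 16.3, 17.5 and 15.2 CPM in control posterior libraries. Treated and control libraries were fully apart in both parts. Itga4 was 2.38-fold higher (log2 fold change 1.25 ± 0.16 SE, adjusted p = 1.9e-05) in the anterior and 1.78-fold higher (log2 fold change 0.83 ± 0.16 SE, adjusted p = 0.0018) in the posterior palate, and it stayed called with the trend removed (0.49 ± 0.10 and 0.36 ± 0.10).

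Its relative Itga9, a receptor for tenascin and other ligands, had 97.8, 92.2 and 102 CPM in tamoxifen anterior libraries, against 76.5, 79.8 and 90.04 CPM in control anterior libraries. Posterior Itga9 was at 126, 138 and 126 CPM in tamoxifen posterior libraries, against 118, 109 and 111 CPM in control posterior libraries. These groups did not overlap either, but the differences were small. Itga9 was called in the anterior palate, 1.19-fold higher (log2 fold change 0.25 ± 0.08 SE, adjusted p = 0.013), and missed the threshold in the posterior palate with 0.20 ± 0.08 (adjusted p = 0.051). The anterior change reversed to -0.13 ± 0.08, not called, with the trend removed, and the call ended without tamoxifen anterior replicate 3 or without control anterior replicate 1 (0.21 in each case).

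Of the remaining RGD-binding subunits, Itga8 rose and Itga5 was not called. Itga8, the β1 partner that binds nephronectin, had 62.1, 56.7 and 63.8 CPM in tamoxifen anterior libraries, against 33.7, 37.5 and 34.3 CPM in control anterior libraries. Posterior Itga8 levels were 32.6, 31.9 and 38.5 CPM in tamoxifen posterior libraries, against 26.7, 29.1 and 25.1 CPM in control posterior libraries. Anterior treated libraries lay far above all others, and posterior treated libraries lay just above their controls. Itga8 was 1.73-fold higher (log2 fold change 0.79 ± 0.09 SE, adjusted p = 5.5e-06) in the anterior and 1.27-fold higher (log2 fold change 0.35 ± 0.09 SE, adjusted p = 0.0099) in the posterior palate. With the trend removed the anterior call was kept (0.26 ± 0.10) and the posterior one ended (0.02 ± 0.10); the posterior call also ended without tamoxifen posterior replicate 3 (0.26) or control posterior replicate 3 (0.30). Itga5 had log2 fold changes of -0.05 ± 0.08 (adjusted p = 0.63) and -0.06 ± 0.08 (adjusted p = 0.65).

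Itgb1, the shared β subunit, had 458, 522 and 479.5 CPM in tamoxifen anterior libraries, against 361, 393 and 352 CPM in control anterior libraries. Posterior Itgb1 levels were 547, 521 and 501 CPM in tamoxifen posterior libraries, against 408, 478 and 429 CPM in control posterior libraries. Treated libraries exceeded the controls of their part in each comparison. Itgb1 was 1.32-fold higher (log2 fold change 0.40 ± 0.08 SE, adjusted p = 0.00061) in the anterior and 1.19-fold higher (log2 fold change 0.25 ± 0.08 SE, adjusted p = 0.025) in the posterior palate. The anterior call was kept with the trend removed (0.17 ± 0.05) and the posterior one was not (0.11 ± 0.05). The posterior call was also lost without tamoxifen posterior replicate 1 or 2 (0.20 and 0.26) and without control posterior replicate 1 or 3 (0.21 and 0.24).

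Of the integrin genes known from blood cells, Itgal, Itgam, Itgae, Itgb2, Itgb7 and Itga2b were low throughout, at or under 9.04 CPM in any library. Itgal and Itgam, α subunits of lymphocytes and myeloid cells, were called in the anterior palate, Itgal 1.68-fold higher (log2 fold change 0.74 ± 0.22 SE, adjusted p = 0.0097) and Itgam 1.97-fold higher (log2 fold change 0.98 ± 0.29 SE, adjusted p = 0.0098). Neither was called in the posterior palate, where the log2 fold changes were 0.29 ± 0.22 (adjusted p = 0.35) and 0.42 ± 0.30 (adjusted p = 0.32). Both anterior calls were lost without tamoxifen anterior replicate 1 (0.62 for Itgal and 0.74 for Itgam), and that of Itgam also with the trend removed (0.74 ± 0.28). Their β partner Itgb2 had 0.15 ± 0.35 (adjusted p = 0.75) and -0.16 ± 0.37 (adjusted p = 0.77) in the anterior and the posterior palate. Itga2b, the platelet α subunit, was called in the anterior palate, 1.44-fold lower (log2 fold change -0.53 ± 0.18 SE, adjusted p = 0.021); that call ended with the trend removed (-0.16 ± 0.15), without tamoxifen anterior replicate 3 (-0.49) and without control anterior replicate 3 (-0.32), and the posterior value was -0.38 ± 0.18 (adjusted p = 0.12). Itgb7 was called in the posterior palate, 1.59-fold lower (log2 fold change -0.67 ± 0.19 SE, adjusted p = 0.016), and had -0.43 ± 0.19 (adjusted p = 0.067) in the anterior palate; the posterior call ended with the trend removed (-0.45 ± 0.18), without tamoxifen posterior replicate 2 (-0.63) and without control posterior replicate 1 (-0.49). Itgae had -0.02 ± 0.42 (adjusted p = 0.97) and -1.05 ± 0.41 (adjusted p = 0.068). The 11 leukocyte markers summed to 80.4 to 109.5 CPM in tamoxifen anterior and 86.9 to 102 CPM in control anterior libraries (3 called higher and 2 lower, 4 and 0 with the trend removed), and to 86.7 to 105 CPM in tamoxifen posterior and 83.96 to 90.3 CPM in control posterior libraries (2 higher and 0 lower, 2 and 0 with the trend removed). These posterior calls were of different genes in each fit, and 0 were kept with the trend removed. Of the anterior leukocyte calls 2 were kept. The 6 platelet markers summed to 6.62 to 9.56 CPM in tamoxifen anterior and 10.2 to 14.8 CPM in control anterior libraries, with 1 called lower (0 with the trend removed). Posterior sums were 8.3 to 9.2 CPM under tamoxifen and 8.6 to 10.9 CPM in controls, with 1 called lower (0 with the trend removed). None of these defining markers was at 0 in all libraries, and their part in the integrin values was not tested.

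Of the laminin genes, Lama3 and Lamc1 rose in both parts, as did Lama2 and Lama4 before but not after trend removal, while Lama1, Lama5, Lamb3 and Lamc3 were not called for tamoxifen in either. Lama3, the α chain of laminin-332, had 48.4, 42.7 and 37.7 CPM in tamoxifen anterior libraries, against 23.5, 25.1 and 19.2 CPM in control anterior libraries. Posterior Lama3 levels were 25.8, 19.8 and 25.1 CPM in tamoxifen posterior libraries, against 13.7, 15.5 and 12.8 CPM in control posterior libraries. No treated library was as low as a control of its part. Lama3 was 1.90-fold higher (log2 fold change 0.93 ± 0.13 SE, adjusted p = 2.8e-05) and 1.69-fold higher (log2 fold change 0.76 ± 0.13 SE, adjusted p = 0.00093) in the anterior and the posterior palate, and it was still called with the trend removed (0.44 ± 0.11 and 0.43 ± 0.12).

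Lamb3, the β chain of laminin-332, was not called for tamoxifen, at log2 fold changes of 0.12 ± 0.15 (adjusted p = 0.54) and 0.17 ± 0.16 (adjusted p = 0.45) in the anterior and the posterior palate. The 12 epithelial markers summed to 1333 to 1628 CPM in tamoxifen anterior and 1219 to 1494 CPM in control anterior libraries, with 5 called higher and 1 lower (2 and 0 with the trend removed), and to 855 to 1129 CPM in tamoxifen posterior and 760.1 to 826 CPM in control posterior libraries, with 6 higher and 0 lower (2 and 0 with the trend removed). Of these calls, 1 in each part was kept with the trend removed. The part of these markers in the rise of Lama3 was not tested.

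Lamc1, the γ chain of most laminins, had 332, 317 and 348 CPM in tamoxifen anterior libraries, against 209, 219.7 and 187 CPM in control anterior libraries. For posterior Lamc1 the values were 298, 348 and 360.2 CPM in tamoxifen posterior libraries, against 231, 267 and 241 CPM in control posterior libraries. Every treated library exceeded the controls of its part. Lamc1 was 1.62-fold higher (log2 fold change 0.69 ± 0.09 SE, adjusted p = 1.4e-05) in the anterior and 1.36-fold higher (log2 fold change 0.44 ± 0.09 SE, adjusted p = 0.0022) in the posterior palate, and both calls were kept with the trend removed (0.36 ± 0.06 and 0.21 ± 0.06). Of the β chains that can join it, Lamb1 had 407, 422 and 397 CPM in tamoxifen anterior libraries, against 339, 340.2 and 363 CPM in control anterior libraries, and 386, 449.6 and 465 CPM in tamoxifen posterior libraries, against 369, 441 and 404 CPM in control posterior libraries. Lamb2, found mainly in synaptic, kidney and vascular basement membranes, had 148, 129 and 163 CPM in tamoxifen anterior libraries, against 184, 189.7 and 196 CPM in control anterior libraries, and 147, 193 and 192 CPM in tamoxifen posterior libraries, against 185, 183 and 193 CPM in control posterior libraries. Lamb1 was thus higher and Lamb2 lower in all anterior treated libraries than in the anterior controls, and posterior libraries of both overlapped.

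Lamb1 was called in the anterior palate, 1.18-fold higher (log2 fold change 0.24 ± 0.08 SE, adjusted p = 0.027), with 0.10 ± 0.08 (adjusted p = 0.39) in the posterior palate. The call was lost with the trend removed (0.01 ± 0.08), without tamoxifen anterior replicate 1 or 2 (0.24 and 0.22) and without control anterior replicate 1 or 2 (0.23 each). Lamb2 was called 1.29-fold lower (log2 fold change -0.37 ± 0.10 SE, adjusted p = 0.0058) in the anterior palate, the only fall among the members that was kept with the trend removed (-0.32 ± 0.06), and had -0.08 ± 0.10 (adjusted p = 0.59) in the posterior palate. Lamc3 had -0.35 ± 0.23 (adjusted p = 0.23) and 0.06 ± 0.23 (adjusted p = 0.88) in the anterior and the posterior palate.

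The mesenchymal and vascular α chains rose in the first fit and were not called with the trend removed. Lama4 had 217, 214 and 248 CPM in tamoxifen anterior libraries, against 159, 167 and 150.0 CPM in control anterior libraries, and 221, 252 and 236 CPM in tamoxifen posterior libraries, against 159.5, 191 and 172 CPM in control posterior libraries. Lama2 had 33.04, 31.3 and 35.9 CPM in tamoxifen anterior libraries, against 25.8, 23.5 and 21.5 CPM in control anterior libraries, and 30.4, 37.1 and 42.3 CPM in tamoxifen posterior libraries, against 23.98, 30.8 and 25.1 CPM in control posterior libraries. Treated and control libraries were apart except for Lama2 in the posterior palate, where they overlapped. Lama4 was 1.43-fold higher (log2 fold change 0.51 ± 0.08 SE, adjusted p = 0.00013) in the anterior and 1.36-fold higher (log2 fold change 0.44 ± 0.08 SE, adjusted p = 0.0018) in the posterior palate. With the trend removed Lama4 had 0.15 ± 0.07 (adjusted p = 0.1) and 0.20 ± 0.07 (adjusted p = 0.05), the posterior value lying at the threshold. Lama2 was 1.42-fold higher (log2 fold change 0.50 ± 0.12 SE, adjusted p = 0.0027) and 1.38-fold higher (log2 fold change 0.46 ± 0.12 SE, adjusted p = 0.011). With the trend removed Lama2 had -0.13 ± 0.11 (adjusted p = 0.38), a reversed sign, and 0.06 ± 0.11 (adjusted p = 0.75). The posterior call of Lama2 was also lost without tamoxifen posterior replicate 3 (0.34) or control posterior replicate 1 or 3 (0.39 and 0.42). Lama1 had -0.04 ± 0.18 (adjusted p = 0.88) and -0.41 ± 0.18 (adjusted p = 0.093) and was called lower in the posterior palate in the trend-removed fit (-0.69 ± 0.17). Lama5 had 0.19 ± 0.12 (adjusted p = 0.2) and 0.30 ± 0.12 (adjusted p = 0.068). The 10 endothelial markers summed to 591 to 642 CPM in tamoxifen anterior and 559 to 618 CPM in control anterior libraries (5 called higher and 4 lower, 4 and 2 with the trend removed), and to 655 to 705 CPM in tamoxifen posterior and 594 to 635 CPM in control posterior libraries (5 higher and 2 lower, 4 and 0 with the trend removed). Of these endothelial calls, 5 anterior and 4 posterior ones were kept with the trend removed. The part of these markers in the laminin values was not tested.

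Whether tamoxifen acted differently in the anterior and the posterior palate was asked with the difference of both effects. No member and no gene at all was called by edgeR (0% of all genes tested in either direction, also with the trend removed), while 4 members and 2110 genes had an unadjusted p under 0.05. limma-voom called 0 genes as well; DESeq2 called 96 genes higher and 83 lower, with 0 members among them. The 4 members were Itga8, Itgb8 and Itgav, with the larger log2 fold change in the anterior palate, and Itga7 with the opposite sign. The difference, anterior minus posterior, was 0.44 ± 0.13 (adjusted p = 0.22) for Itga8, 0.93 ± 0.30 (adjusted p = 0.27) for Itgb8, 0.32 ± 0.12 (adjusted p = 0.31) for Itgav and -0.95 ± 0.32 (adjusted p = 0.28) for Itga7. A call in 1 part and not in the other is therefore not shown to be a difference between the parts for any member.

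Anterior shelves had more Lama3, Lamb3, Lama5, Itga3 and Itga8 RNA than posterior shelves, and less Itga5, Itga9, Itgb3 and Itgb6 RNA. Under tamoxifen 7 of the 35 members were called higher and 4 lower in the anterior palate, against 7.6% and 10.2% of all genes tested. In controls 8 were called higher and 8 lower, against 10.2% and 13.1%. These 9 genes were among those called in both states, where 5.06% and 7.38% of all genes were called higher and lower in both. The members' median log2 fold change was 0.13 under tamoxifen and -0.08 in controls, against 0.02 for all genes in each. Anterior and posterior libraries did not overlap for 14 members under tamoxifen and 18 in controls, against 33.1% and 41.2% of all genes tested. With the trend removed 12 members were called higher and 4 lower under tamoxifen (13.9% and 11% of all genes), and 8 higher and 6 lower in controls (14.5% and 12.5%). Of the first fit's calls, 11 of 11 under tamoxifen and 14 of 16 in controls were kept. In these comparisons the fold changes of all genes had Spearman correlations with transcript length of 0.00 under tamoxifen and -0.30 in controls. Those with GC content were -0.18 under tamoxifen and 0.19 in controls.

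**Figure D4:**
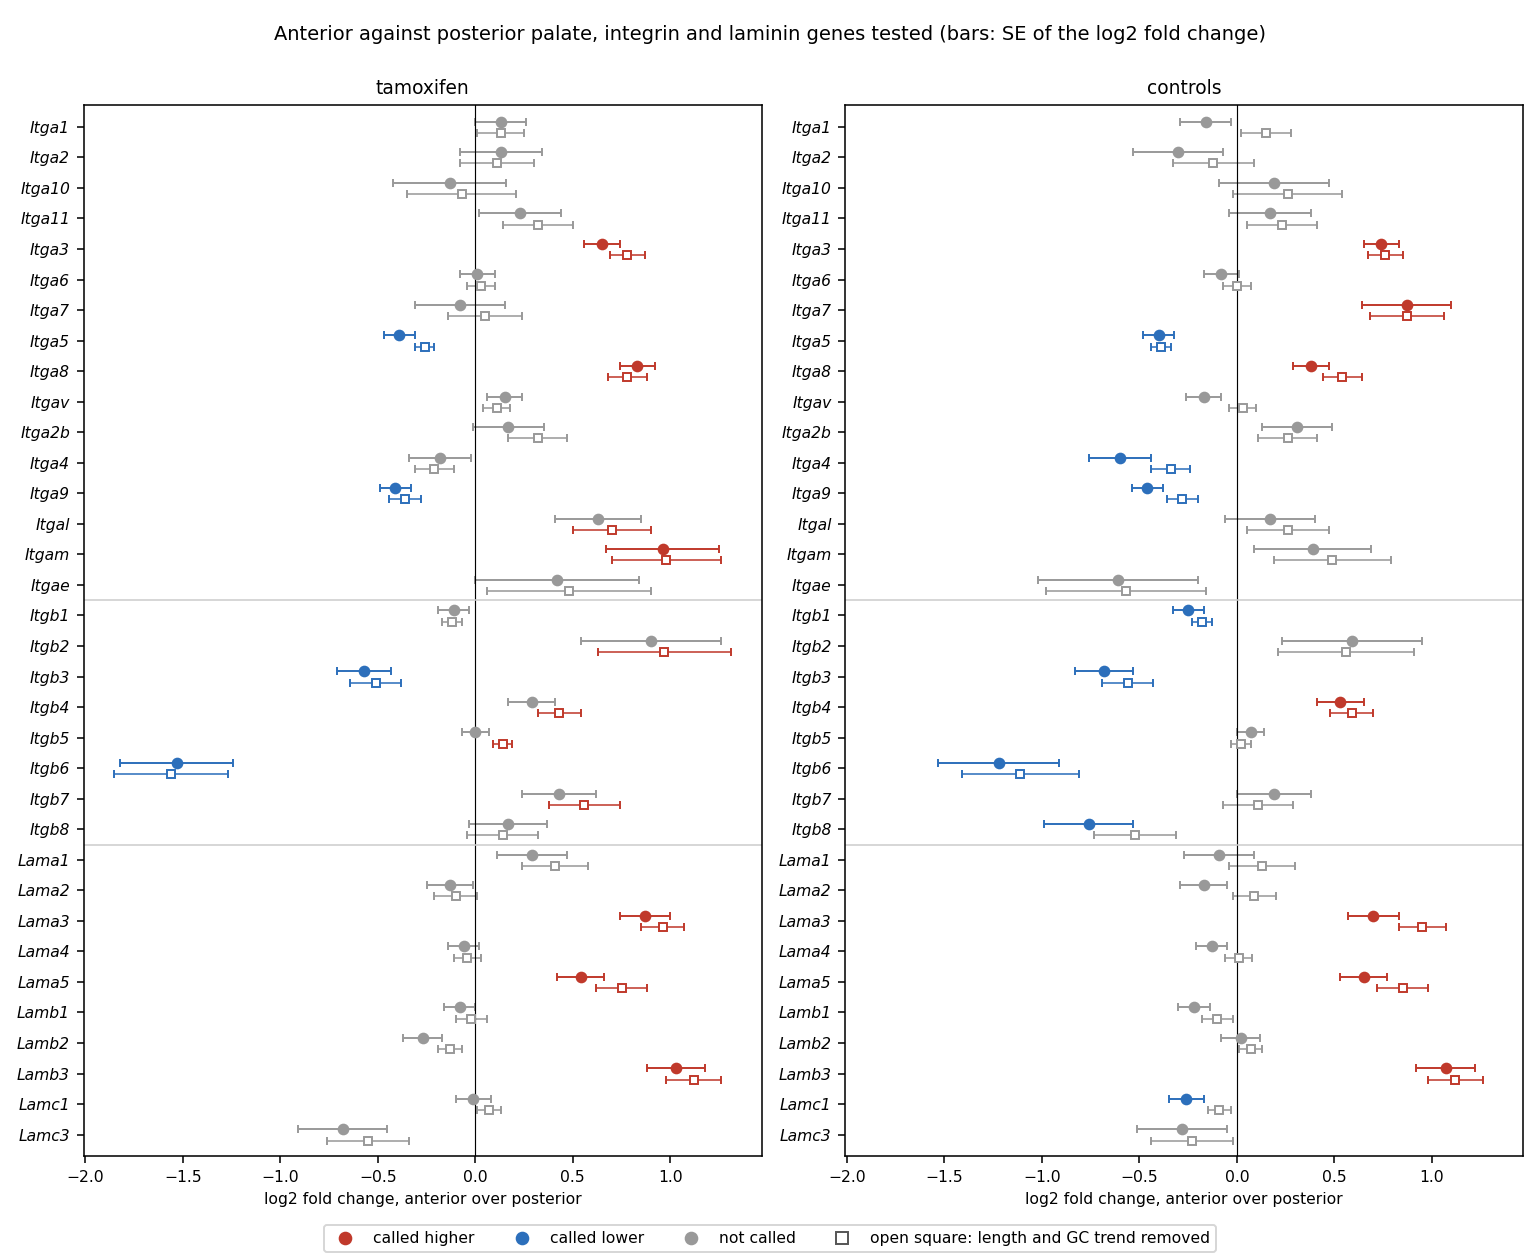
Each row is 1 member tested; filled circles give the log2 fold change of anterior over posterior palate with its SE, and open squares the same after removal of the length and GC trend, under tamoxifen (left) and in controls (right). Lama3, Lama5, Lamb3, Itga3 and Itga8 lie to the right of 0 in both panels, and Itgb6, Itgb3, Itga5 and Itga9 to the left.

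The laminin-332 genes Lama3 and Lamb3 were higher anteriorly in both states. Lamb3 had 34.1, 23.6 and 29.2 CPM in tamoxifen anterior libraries, against 14.7, 11.3 and 16.7 CPM in tamoxifen posterior libraries. In controls Lamb3 had 23.2, 28.3 and 28.6 CPM in control anterior libraries, against 13.9, 10.9 and 13.2 CPM in control posterior libraries. Anterior libraries were all well above the posterior ones. Lamb3 was 2.04-fold higher (log2 fold change 1.03 ± 0.15 SE, adjusted p = 0.00011) in the anterior palate under tamoxifen and 2.11-fold higher (log2 fold change 1.07 ± 0.15 SE, adjusted p = 7.4e-05) in controls. For Lama3 the anterior level was 1.82-fold higher (log2 fold change 0.87 ± 0.13 SE, adjusted p = 8.1e-05) under tamoxifen and 1.62-fold higher (log2 fold change 0.70 ± 0.13 SE, adjusted p = 0.00085) in controls.

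Lama5, the α chain of laminins in many epithelial and vascular basement membranes, had 231, 195 and 183 CPM in tamoxifen anterior libraries, against 129, 125 and 165 CPM in tamoxifen posterior libraries. In controls Lama5 had 160.2, 199 and 176 CPM in control anterior libraries, against 102, 114 and 124 CPM in control posterior libraries. The lowest anterior library lay above the highest posterior one in each state. Lama5 was 1.46-fold higher (log2 fold change 0.54 ± 0.12 SE, adjusted p = 0.0034) in the anterior palate under tamoxifen and 1.57-fold higher (log2 fold change 0.65 ± 0.12 SE, adjusted p = 0.00068) in controls. The laminin receptor subunit Itga3 was 1.57-fold higher (log2 fold change 0.65 ± 0.09 SE, adjusted p = 2.8e-05) under tamoxifen and 1.67-fold higher (log2 fold change 0.74 ± 0.09 SE, adjusted p = 8e-06) in controls.

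Itgb4 had 85.2, 59.8 and 73.2 CPM in tamoxifen anterior libraries, against 55.5, 53.6 and 69.2 CPM in tamoxifen posterior libraries. In controls Itgb4 had 72.8, 85.1 and 87.2 CPM in control anterior libraries, against 56.7, 60.1 and 52.6 CPM in control posterior libraries. Anterior and posterior libraries overlapped under tamoxifen and were apart in controls. Itgb4 was called in controls, 1.45-fold higher (log2 fold change 0.53 ± 0.12 SE, adjusted p = 0.0044), and had 0.29 ± 0.12 (adjusted p = 0.11) under tamoxifen, where the trend-removed fit called it higher (0.43 ± 0.11). Its partner Itga6 was called in neither state, at 0.01 ± 0.09 (adjusted p = 0.97) under tamoxifen and -0.08 ± 0.09 (adjusted p = 0.6) in controls. The summed epithelial markers were higher in the anterior palate as well, 1333 to 1628 CPM against 855 to 1129 CPM in the posterior palate under tamoxifen (9 of 12 called higher, 0 lower), and 1219 to 1494 CPM against 760.1 to 826 CPM in controls (8 of 12 higher, 0 lower). Of the first 3 markers, Krt5 differed most. Krt5 stood at 156 to 214 CPM in tamoxifen anterior and 89.5 to 130 CPM in tamoxifen posterior libraries. In controls it had 200.3 to 303 CPM in anterior and 69.3 to 83.1 CPM in posterior libraries. Epcam had 69.05 to 94.02 against 49.8 to 66.24 CPM under tamoxifen, and 72.82 to 85.16 against 51.28 to 53.7 CPM in controls. Cdh1 overlapped between the parts, at 97.91 to 133.9 against 80.72 to 115.3 CPM under tamoxifen. In controls Cdh1 overlapped as well, at 71.19 to 95.05 against 63.84 to 75.08 CPM. The part of these markers in the laminin and integrin differences was not tested.

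**Figure D5:**
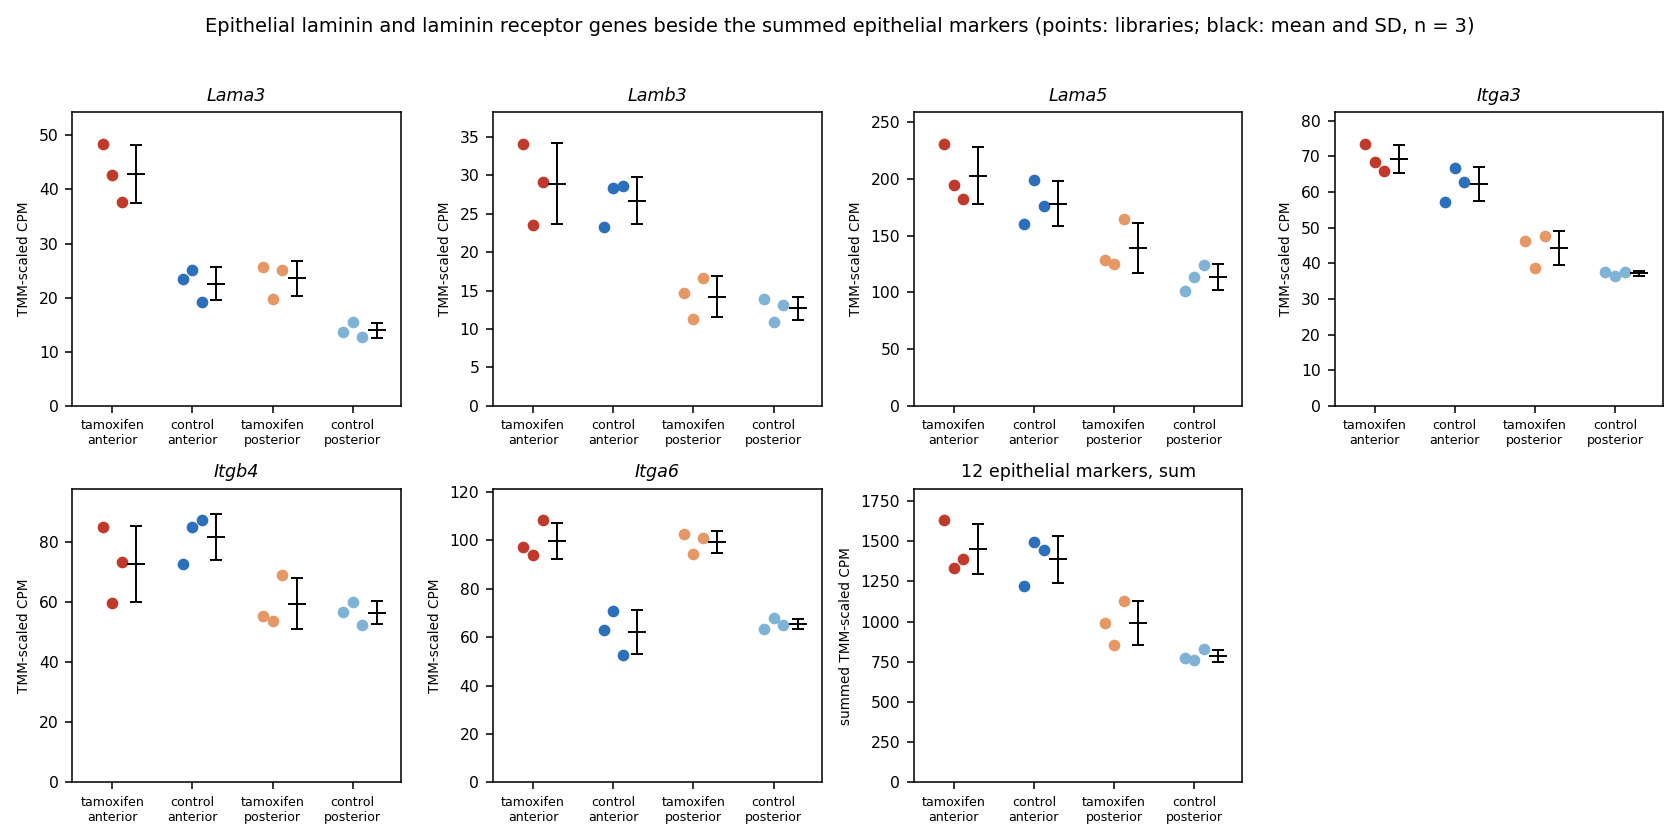
Points are single libraries and black marks the mean and SD (n = 3) of TMM-scaled CPM for the laminin-332 genes Lama3 and Lamb3, Lama5 and the laminin receptor subunits Itga3, Itgb4 and Itga6; the last panel sums 12 epithelial markers. Lamb3, Lama5, Itga3 and the marker sum are higher in the anterior groups, and Itga6 is higher in the tamoxifen groups of both parts.

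Itga8 in the anterior palate was 1.77-fold higher (log2 fold change 0.83 ± 0.09 SE, adjusted p = 3.1e-06) under tamoxifen and 1.30-fold higher (log2 fold change 0.38 ± 0.09 SE, adjusted p = 0.0053) in controls; the control call was lost without control anterior replicate 2 (0.30). Itga7 was called in controls, 1.83-fold higher (log2 fold change 0.87 ± 0.23 SE, adjusted p = 0.011) anteriorly, and all 11 muscle markers tested were lower there; the call was lost without control anterior replicate 2 (0.77) or control posterior replicate 2 (0.68), and under tamoxifen Itga7 had -0.08 ± 0.23 (adjusted p = 0.86). Itgam was called under tamoxifen, 1.95-fold higher (log2 fold change 0.96 ± 0.29 SE, adjusted p = 0.026) anteriorly, and had 0.39 ± 0.30 (adjusted p = 0.38) in controls; its call was lost without tamoxifen anterior replicate 1 (0.71) or tamoxifen posterior replicate 2 or 3 (0.82 and 1.01). In the trend-removed fit Itgal, Itgb2, Itgb5 and Itgb7 were called higher under tamoxifen in addition, at 0.70 ± 0.20, 0.97 ± 0.34, 0.14 ± 0.05 and 0.56 ± 0.18.

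The fibronectin receptor subunit Itga5 was lower in the anterior palate, and so higher posteriorly. It had 156, 129 and 156 CPM in tamoxifen anterior libraries, against 174, 203 and 203 CPM in tamoxifen posterior libraries. In controls Itga5 had 156, 145 and 157 CPM in control anterior libraries, against 204, 201 and 197 CPM in control posterior libraries. No anterior library reached a posterior one. Itga5 was 1.31-fold lower (log2 fold change -0.39 ± 0.08 SE, adjusted p = 0.0029) in the anterior palate under tamoxifen and 1.31-fold lower (log2 fold change -0.40 ± 0.08 SE, adjusted p = 0.0025) in controls. Itga9 was 1.33-fold lower (log2 fold change -0.41 ± 0.08 SE, adjusted p = 0.00069) under tamoxifen and 1.37-fold lower (log2 fold change -0.46 ± 0.08 SE, adjusted p = 0.00029) in controls. Not all receptors of RGD proteins had this direction: of the 4 such α subunits tested, 1 was called higher and 1 lower in each state, the higher one being Itga8. Cartilage markers were also lower in the anterior palate, with 9 genes summing to 449 to 545 CPM in tamoxifen anterior and 1635 to 2325 CPM in tamoxifen posterior libraries (0 called higher, 9 lower), and to 554 to 629.9 CPM in control anterior and 2282 to 2551 CPM in control posterior libraries (0 higher, 8 lower). The 11 tested muscle markers were all called lower anteriorly in both states. The part of these markers in the integrin and ligand values that were lower anteriorly was not tested.

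Itgb3, the β subunit of the vitronectin receptor, had 9.62, 8.35 and 8.07 CPM in tamoxifen anterior libraries, against 10.3, 14.3 and 14.2 CPM in tamoxifen posterior libraries. In controls Itgb3 had 9.29, 7.50 and 8.27 CPM in control anterior libraries, against 11.4, 14.7 and 14.1 CPM in control posterior libraries. Anterior and posterior libraries were apart in both states. Itgb3 was 1.49-fold lower (log2 fold change -0.57 ± 0.14 SE, adjusted p = 0.0095) under tamoxifen and 1.60-fold lower (log2 fold change -0.68 ± 0.15 SE, adjusted p = 0.0026) in controls, and the call under tamoxifen was lost without tamoxifen posterior replicate 2 or 3 (-0.50 in each case). Itgb6, an epithelial αv partner, was rare: it had 0.795, 0.671 and 0.621 CPM in tamoxifen anterior libraries, against 2.58, 2.13 and 1.38 CPM in tamoxifen posterior libraries. In controls Itgb6 had 0.495, 0.677 and 0.562 CPM in control anterior libraries, against 1.39, 1.65 and 1.04 CPM in control posterior libraries. All posterior libraries were above all anterior ones, from 20 to 59 reads anteriorly and from 50 to 132 posteriorly. Itgb6 was 2.90-fold lower (log2 fold change -1.53 ± 0.29 SE, adjusted p = 0.001) under tamoxifen and 2.34-fold lower (log2 fold change -1.22 ± 0.31 SE, adjusted p = 0.0081) in controls, the largest regional difference among the members and opposite in direction to the epithelial markers.

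Itga4, Itgb1, Itgb8 and Lamc1 were called lower in the anterior palate in controls and not under tamoxifen. Under tamoxifen the log2 fold changes were -0.18 ± 0.16 (adjusted p = 0.48) for Itga4, -0.11 ± 0.08 (adjusted p = 0.42) for Itgb1, 0.17 ± 0.20 (adjusted p = 0.62) for Itgb8 and -0.01 ± 0.09 (adjusted p = 0.95) for Lamc1. In controls Itga4 was 1.52-fold lower (log2 fold change -0.60 ± 0.16 SE, adjusted p = 0.013), Itgb1 1.19-fold lower (log2 fold change -0.25 ± 0.08 SE, adjusted p = 0.031), Itgb8 1.69-fold lower (log2 fold change -0.76 ± 0.23 SE, adjusted p = 0.023) and Lamc1 1.20-fold lower (log2 fold change -0.26 ± 0.09 SE, adjusted p = 0.039). The calls of Itgb8 and Lamc1 ended with the trend removed (-0.52 ± 0.21 and -0.09 ± 0.06). Leaving out 1 control library ended that of Itga4 (anterior replicate 3 at -0.42, posterior replicate 2 at -0.55), of Itgb1 (anterior replicate 3 at -0.22, posterior replicate 2 at -0.18 or 3 at -0.27), of Lamc1 (anterior replicate 3 at -0.20, posterior replicate 2 at -0.20 or 3 at -0.28) and of Itgb8 (anterior replicate 1 at -0.74 or 3 at -0.62, posterior replicate 1 at -0.75 or 3 at -0.73). The difference between the states was not called for any of them.

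4 lists of partner genes were read beside the members. Of all genes tested, 25.6% were called higher and 24% lower in the anterior palate under tamoxifen, and 17.3% and 11.7% in the posterior palate. With the trend removed the shares were 16.1% and 16.6% in the anterior palate, and 7.74% and 10.2% in the posterior palate. Of 20 basement membrane partners, 9 were higher and 2 lower in the anterior palate under tamoxifen, and 8 higher and 0 lower in the posterior palate. Col4a5, an α chain of type IV collagen, was 2.05-fold higher (log2 fold change 1.03 ± 0.09 SE, adjusted p = 1.1e-06) in the anterior and 1.42-fold higher (log2 fold change 0.50 ± 0.09 SE, adjusted p = 0.00099) in the posterior palate. Nid1, which links laminin γ1 to collagen IV, was in the same order 1.66-fold higher (log2 fold change 0.73 ± 0.09 SE, adjusted p = 1.3e-05) and 1.42-fold higher (log2 fold change 0.51 ± 0.09 SE, adjusted p = 0.0013). Both stayed called with the trend removed, Col4a5 at 0.69 ± 0.09 and 0.27 ± 0.09, and Nid1 at 0.38 ± 0.07 and 0.27 ± 0.07. Ntn4, a netrin that binds laminin, was 1.68-fold higher (log2 fold change 0.75 ± 0.19 SE, adjusted p = 0.0042) in the anterior and 2.13-fold higher (log2 fold change 1.09 ± 0.20 SE, adjusted p = 0.0014) in the posterior palate, and was likewise called with the trend removed (0.76 ± 0.18 and 1.07 ± 0.19). In the trend-removed fit the list had 6 higher and 1 lower, and 5 higher and 1 lower. Of the first fit's calls, 7 anterior and 4 posterior ones were kept.

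Of 14 other integrin ligands, 8 were higher and 3 lower in the anterior and 6 higher and 0 lower in the posterior palate (5 and 1, and 3 and 0, with the trend removed). Of the first fit's calls, 4 anterior and 2 posterior ones were kept. Thbs1, thrombospondin 1, was 1.64-fold higher (log2 fold change 0.71 ± 0.10 SE, adjusted p = 2.4e-05) in the anterior and 1.42-fold higher (log2 fold change 0.51 ± 0.10 SE, adjusted p = 0.0017) in the posterior palate, and both calls were kept with the trend removed (0.36 ± 0.08 and 0.27 ± 0.08). Edil3, a ligand of αv integrins, was 1.86-fold higher (log2 fold change 0.90 ± 0.14 SE, adjusted p = 0.00011) in the anterior and 1.36-fold higher (log2 fold change 0.45 ± 0.14 SE, adjusted p = 0.025) in the posterior palate, of which the anterior call was kept (0.38 ± 0.12) and the posterior one was not (0.15 ± 0.12). Tnc, tenascin C, was 1.62-fold higher (log2 fold change 0.70 ± 0.13 SE, adjusted p = 3e-04) in the anterior palate, where Madcam1 was 1.77-fold lower (log2 fold change -0.83 ± 0.15 SE, adjusted p = 0.00026); the call of Tnc was kept with the trend removed (0.37 ± 0.13) and that of Madcam1 was not (-0.24 ± 0.12).

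Of 5 laminin receptors that are not integrins, 2 were higher and 0 lower in the anterior palate and 1 higher and 0 lower in the posterior palate. Dag1, dystroglycan, was 1.46-fold higher (log2 fold change 0.55 ± 0.08 SE, adjusted p = 3.6e-05) in the anterior and 1.34-fold higher (log2 fold change 0.42 ± 0.08 SE, adjusted p = 0.0013) in the posterior palate, and still called with the trend removed (0.35 ± 0.05 and 0.27 ± 0.05). Of 27 adaptors that tie integrins to the cytoskeleton, 11 were higher and 7 lower in the anterior palate and 6 higher and 1 lower in the posterior palate, and 5 and 4, and 2 and 0, with the trend removed. Vcl, vinculin, was 1.59-fold higher (log2 fold change 0.67 ± 0.08 SE, adjusted p = 1.3e-05) in the anterior and 1.41-fold higher (log2 fold change 0.50 ± 0.08 SE, adjusted p = 0.00086) in the posterior palate and kept its calls (0.33 ± 0.06 and 0.27 ± 0.06). Tns3, a tensin, was 1.63-fold higher (log2 fold change 0.71 ± 0.08 SE, adjusted p = 5.3e-06) in the anterior and 1.31-fold higher (log2 fold change 0.39 ± 0.08 SE, adjusted p = 0.0025) in the posterior palate, of which the anterior call was kept (0.37 ± 0.05). These shares stand beside the percentages of all genes given above for the same comparisons.

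Of the 14 ligands, 0 were higher and 8 lower in the anterior against the posterior palate under tamoxifen, where 7.6% and 10.2% of all genes were, and 0 higher and 7 lower in controls, where 10.2% and 13.1% of all genes were. With the trend removed the counts were 1 higher and 8 lower under tamoxifen and 0 higher and 5 lower in controls. Tgfbi, an RGD-bearing matrix protein, had 107, 99.9 and 105 CPM in tamoxifen anterior libraries, against 246, 268 and 257 CPM in tamoxifen posterior libraries. In controls Tgfbi had 109, 104 and 102 CPM in control anterior libraries, against 224, 249 and 241 CPM in control posterior libraries. The anterior libraries lay below every posterior library. Tgfbi was 2.47-fold lower (log2 fold change -1.30 ± 0.07 SE, adjusted p = 7.6e-10) in the anterior palate under tamoxifen and 2.27-fold lower (log2 fold change -1.18 ± 0.07 SE, adjusted p = 3.3e-09) in controls. Postn, periostin, was 1.72-fold lower (log2 fold change -0.79 ± 0.10 SE, adjusted p = 2.9e-05) under tamoxifen and 1.90-fold lower (log2 fold change -0.92 ± 0.10 SE, adjusted p = 5.4e-06) in controls, and Ltbp1, which holds latent TGF-β in the matrix, was 1.72-fold lower (log2 fold change -0.78 ± 0.11 SE, adjusted p = 5.9e-05) under tamoxifen and 1.89-fold lower (log2 fold change -0.92 ± 0.11 SE, adjusted p = 1.1e-05) in controls. All of these calls were kept with the trend removed. Among the 20 basement membrane partners 6 were higher and 2 lower under tamoxifen (10 and 2 with the trend removed), and 5 higher and 3 lower in controls (8 and 4). The epithelial collagens Col17a1 and Col7a1 were 1.89-fold and 1.52-fold higher anteriorly in controls (adjusted p = 0.001 and 0.00065). Of the non-integrin laminin receptors Bcam was 1.48-fold higher (log2 fold change 0.56 ± 0.11 SE, adjusted p = 0.0014) anteriorly under tamoxifen and 1.74-fold higher (log2 fold change 0.80 ± 0.11 SE, adjusted p = 4.5e-05) in controls, and Dag1 was 1.22-fold lower (log2 fold change -0.28 ± 0.08 SE, adjusted p = 0.015) under tamoxifen and 1.33-fold lower (log2 fold change -0.41 ± 0.08 SE, adjusted p = 0.00096) in controls.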

How the data were processed

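RNA-seq counts were available for 12 libraries, 3 from each combination of tamoxifen or control and anterior or posterior palate. The values are raw counts per gene symbol, deposited by the authors as 1 table per sample. Per the submitters' processing notes the tools were HISAT2 and StringTie and the build mm9; the annotation, counting program, strand setting and tool versions were not given in the sources used here, so reads of overlapping antisense genes cannot be told apart. Of the counts from 1 to 100, 57.1 to 60.1% were even, and the counts were used as deposited.

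edgeR 4.0.16 (R 4.3.3) was fitted to all 12 libraries with 1 mean per group (8 residual degrees of freedom), TMM scaling, filterByExpr and robust quasi-likelihood tests, two-sided, with Benjamini-Hochberg adjustment over 15958 genes. SE is the absolute log2 fold change divided by the square root of F. Lengths and GC contents for RPKM and the trend came from the longest GENCODE transcript of each symbol, and promoters from RefSeq (GRCm38.p6), a later build than the one the notes name. The trend was fitted in each library by natural splines with 4 degrees of freedom for each property. DESeq2 1.42.0, limma 3.58.1 (voom), other scalings and filters, a replicate block, counts divided by 2, fits of only the groups compared and the omission of each library were tried as alternatives. The fits were also run on simulated counts, with set requirements for recovered changes and false calls. Under a simulated length trend only the edgeR fits were run, and the fit without trend removal was exempt from these requirements. Replicate pairs differed by more than sampling noise, so none was treated as 1 library deposited again. With 3 libraries a group, an exact permutation test of a single value cannot go below p = 0.1.

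The members and gene lists were chosen with earlier results of these data known. The counts cover all members tested, and 1 result is not reported here. Values in every library are given for other members called in at least 1 comparison with a mean of 10 CPM or more in a group, and for the 2 largest log2 fold changes among those called in each comparison. Of each partner list up to 4 genes per comparison, those with the smallest adjusted p, were eligible to be named, and of marker lists the first 3.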

Additional observations from a re-analysis of the deposited data

How the results depend on the processing

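Of the 62 calls of members over the comparisons, 62 kept their direction and side of the threshold with DESeq2, RLE factors, no filter or counts divided by 2, 61 with a filter of 1 CPM in 3 libraries or with fits of only the groups compared, 60 with limma-voom or upper-quartile factors, and 45 with the length and GC trend removed. Trend removal had the largest effect of the alternatives run, and it reversed Lama2 and Itga9 in the anterior palate under tamoxifen (-0.13 each, not called). It left 1 member lower in the anterior and 7 higher in the posterior palate under tamoxifen against control, and put 12 higher in the anterior against the posterior palate under tamoxifen; the part of length and GC in these shifts was not tested further. The count of members lower in the posterior palate under tamoxifen was 2 with DESeq2 and with counts divided by 2. Level means moved by less than 1 SD in 148 of 148 cases when CPM were set on library totals without TMM. Members with few reads, such as Itgae and Itgb2, have the largest SEs among those named.

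Leaving out 1 library at a time gave 14 to 17 members higher and 1 to 4 lower for tamoxifen in the anterior palate, the 1 without control anterior replicate 3. In the posterior palate it gave 9 to 15 higher, the 9 without control posterior replicate 3, and 0 to 2 lower, 0 without tamoxifen posterior replicate 2 or control posterior replicate 1 and 2 without tamoxifen posterior replicate 3. For anterior against posterior palate under tamoxifen it gave 6 to 11 higher, the 11 without tamoxifen anterior replicate 2, and 3 to 6 lower. In controls it gave 5 to 8 higher, the 5 without control anterior replicate 2, and 4 to 9 lower, with 4 without control anterior replicate 3 and 5 without control posterior replicate 2 or 3. The difference of the tamoxifen effects had 0 calls in each case. The tamoxifen calls of Itgb8, Itgav, Itga1, Itga4, Itga6, Lama3, Lama4 and Lamc1 were kept in both parts without any 1 library.

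Replicate numbers are shared between groups. The deviations of libraries with the same number correlated at -0.06 to 0.15. Tamoxifen anterior and tamoxifen posterior libraries had 0.15, -0.01 and 0.14 for replicates 1, 2 and 3. Libraries with different numbers were not compared, so this check cannot decide whether the samples are paired. The main fit did not take the numbers to pair the samples. With the replicate number as a block, 17 members were higher and 3 lower for tamoxifen in the anterior palate, 13 and 2 in the posterior palate (where the call of Itga3 was lost, adjusted p = 0.053), 7 and 5 for the region under tamoxifen, 7 and 8 for the region in controls, and 0 and 0 for the difference of effects. With the block and trend removal together, 8 were higher in the posterior palate for tamoxifen, Lama4 among them. In that fit 11 were higher anteriorly under tamoxifen, and Lama2 and Itga9 again had -0.13 each.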
